A study of Mus musculus with 7 samples.

Results

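Endothelial genes were followed in the RNA of sorted muscle cells that were collected for their Pax7-GFP signal. The set holds 10 genes that are textbook markers of the vessel lining (Pecam1, Cdh5, Kdr, Tek, Tie1, Flt1, Emcn, Vwf, Cldn5 and Egfl7), chosen by name, and all 10 are among the 23930 genes of the deposited table. The libraries came from Pax7-GFP reporter mice, described as C57/B6 littermates for all samples although the number after C57BL in the genotype label differs from library to library, in which tamoxifen activates a Cre recombinase expressed from the Pax7 locus and thereby switches on a lasting green label in Pax7-expressing cells and their progeny. All animals received tamoxifen, were 12 weeks old at the start and 16 weeks old at collection, and spent the 4 weeks between in room air (normocapnia, 3 libraries, NC1 to NC3) or in 10% CO2 (hypercapnia, 4 libraries, HC1 to HC4). Leg muscles of both groups were injured with cardiotoxin, a toxin that destroys myofibers, 3 days before collection. The sample labels do not mention that step, and the title of the deposited table carries a time of 40 hours, so the stage of the cells after injury is not settled by the labels. Neither the sex of the animals nor whether any were pooled is given per library, and the reporter marks the history of a cell, so the gate itself does not read any endothelial gene.

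Endothelial cells line blood vessels and in skeletal muscle form the dense capillary bed that runs along myofibers, close to the satellite cells. Their growth and survival are steered by vascular endothelial growth factor (VEGF), which binds the receptor tyrosine kinases encoded by Kdr and Flt1, and by the angiopoietins, which bind the receptor encoded by Tek, with the related Tie1 protein as its partner. Neighboring cells are held together by junction proteins such as VE-cadherin, PECAM-1 and claudin-5, and the cells secrete von Willebrand factor, which tethers platelets to damaged vessel walls.

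Expression was measured with an AmpliSeq panel, which amplifies a single short stretch of each gene, and is given in RPM, a count of reads scaled to the same total in each library. Such values compare a gene, or the sum of a list, between libraries and not genes with each other, and where genes of a list are named for having its highest RPM this is only the rule by which they were picked. Library totals, recovered from the RPM values, ran from 14527445 to 23388710 reads, so that a single read stood for 0.0428 to 0.0688 RPM. The 10 genes together took between 0.00649% (HC2) and 0.0626% (HC3) of the reads, so they were a small part of each library, and the defining markers were nevertheless detected in all 7 libraries. The 12504 genes whose level averaged 1 RPM or above over the libraries are called expressed genes here and serve as the background. The sum of 8 macrophage markers, most of it Lyz2, also differed between libraries, from 10560 RPM (NC1) to 32520 RPM (NC3), but Adgre1 (F4/80) and C1qb were lower in NC3 (70.5 and 158 RPM) than in NC1 (109 and 619 RPM). The marker behind the label of the cells varied widely, since Pax7, the satellite cell factor behind the reporter, ran from 4.34 RPM (NC3) to 268 RPM (NC1). Xist, the noncoding RNA of the inactive X chromosome, stood between 445 and 701 RPM in NC1, NC2, HC1 and HC2 and at no more than 0.125 RPM in NC3, HC3 and HC4, where the Y-linked gene Ddx3y was at 103 to 206 RPM. The libraries therefore differed in sex-linked RNA in a way that the labels do not record, with 2 of 3 normocapnia and 2 of 4 hypercapnia libraries carrying Xist. In bulk RNA, fewer cells of a type and less RNA per cell cannot be told apart.

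The stretch before the transcription start is shown for 4 of the genes, since they kept a similar order across the hypercapnia libraries but parted in NC3, where Emcn and Tek were at or above their NC2 level and Kdr and Tie1 far below it. Sequences are the 250 bases before the RefSeq start (GRCm38.p6), printed 5′ to 3′ on the strand of the gene. Capitals mark the hexamer AGGAAG or its reverse complement CTTCCT. It holds GGAA, the shorter core bound by ETS factors, the family of transcription factors best known for endothelial promoters, and GGAA outside this hexamer is not marked.
Emcn (chr3:137340828-137341077, plus strand): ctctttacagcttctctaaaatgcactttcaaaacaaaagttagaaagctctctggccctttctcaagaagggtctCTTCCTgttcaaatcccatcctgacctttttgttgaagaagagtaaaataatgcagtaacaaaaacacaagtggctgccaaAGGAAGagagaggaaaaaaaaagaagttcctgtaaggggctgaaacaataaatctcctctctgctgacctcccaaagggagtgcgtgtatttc
Tek (chr4:94739039-94739288, plus strand): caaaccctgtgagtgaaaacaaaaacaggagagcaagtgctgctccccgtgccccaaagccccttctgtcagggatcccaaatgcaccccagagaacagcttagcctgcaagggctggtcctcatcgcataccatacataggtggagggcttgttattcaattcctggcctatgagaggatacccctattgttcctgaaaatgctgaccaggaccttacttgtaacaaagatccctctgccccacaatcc
Kdr (chr5:75978456-75978705, minus strand): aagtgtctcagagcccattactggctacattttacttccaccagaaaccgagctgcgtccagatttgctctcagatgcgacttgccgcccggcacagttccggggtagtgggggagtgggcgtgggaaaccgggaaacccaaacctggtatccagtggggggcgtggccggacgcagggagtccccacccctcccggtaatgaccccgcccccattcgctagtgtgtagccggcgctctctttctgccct
Tie1 (chr4:118489850-118490099, minus strand): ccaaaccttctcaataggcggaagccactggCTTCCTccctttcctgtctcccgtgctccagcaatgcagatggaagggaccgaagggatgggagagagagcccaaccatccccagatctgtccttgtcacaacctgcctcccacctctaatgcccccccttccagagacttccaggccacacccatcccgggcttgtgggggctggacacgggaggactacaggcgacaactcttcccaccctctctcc
Emcn held 2 matches to the hexamer and Tie1 held 1, whereas the windows of Tek and Kdr held none. The shorter core, read on the other strand as TTCC, does occur unmarked in both of these windows. RefSeq windows were found for 7 of the 10 genes, as 9 windows because Egfl7 has several starts, and 5 of the 9 held the hexamer on either strand, against 29.5% of all 32851 windows. The GATA core GATAA, searched on both strands, was in 1 of the 9 windows against 22.6% of all. The presence of the hexamer did not follow the behavior in NC3, as each pair held a window with it and a window without.

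Both VEGF receptors were highest in HC3 and HC4. Kdr, which encodes VEGFR-2, the main signaling receptor for VEGF, stood at 10.3, 4.45 and 0.207 RPM in NC1 to NC3 and at 5.18, 4.92, 17.9 and 17.3 RPM in HC1 to HC4. NC3 was the lowest by far, with 3 reads (95% exact binomial interval 0.0426 to 0.603 RPM, counting error only), and the other normocapnia libraries fell on both sides of HC1 and HC2. Its log2 difference, hypercapnia minus normocapnia on log2(RPM + 1), was 1.33 (SE 0.92; exact permutation p = 0.229, two-sided). Flt1, which encodes VEGFR-1, a receptor that binds VEGF tightly and signals weakly, stood at 9.32, 7.10 and 3.10 RPM against 2.70, 2.86, 28.6 and 21.9 RPM. For Flt1 the first pair of hypercapnia libraries lay below every normocapnia library and the other pair above (log2 difference 0.50, SE 0.96; exact permutation p = 0.571).

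The angiopoietin receptors showed the same order within hypercapnia. Tek, which encodes Tie2, the receptor that keeps vessels quiescent, stood at 11.3, 5.56 and 7.99 RPM in normocapnia and at 2.40, 1.81, 21.9 and 17.1 RPM in hypercapnia. The normocapnia values lay in a narrow band inside the range of the hypercapnia values, and the difference was -0.18 (SE 0.91; exact permutation p = 0.857). It was the single negative difference among the 10 genes, and its sign turned in several other analyses given in the closing section. Tie1, the partner of Tie2, stood at 10.0, 4.45 and 0.895 RPM against 2.18, 1.76, 17.8 and 16.3 RPM (difference 0.59, SE 1.03; exact permutation p = 0.657). Here NC3 was the lowest library, while Tek in NC3 was not.

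Genes of the cell surface and the junctions followed the same order within hypercapnia. Pecam1, which encodes the adhesion protein CD31, also present on platelets and several leukocytes, stood at 132, 55.7 and 55.8 RPM in normocapnia and at 28.2, 26.2, 317 and 229 RPM in hypercapnia. Again HC1 and HC2 lay below all normocapnia libraries and HC3 and HC4 above them (difference 0.21, SE 1.11; exact permutation p = 0.886). Cdh5, the gene of VE-cadherin, which holds the junctions of endothelial cells and is more restricted to them, stood at 41.6, 20.2 and 10.5 RPM against 17.3, 8.04, 81.7 and 74.8 RPM (difference 0.55, SE 0.98; exact permutation p = 0.60). Emcn, the gene of endomucin, a sialomucin of capillaries and veins, stood at 12.5, 7.23 and 12.6 RPM against 3.38, 1.96, 42.2 and 35.6 RPM. Its highest hypercapnia library was 21.5 times its lowest, whereas its normocapnia libraries spanned 1.74-fold (difference 0.06, SE 1.15; exact permutation p = 0.914). Cldn5, a tight-junction claudin, stood at 8.25, 3.29 and 1.38 RPM against 2.18, 2.56, 10.9 and 7.31 RPM. It alone of the 10 genes did not have HC3 and HC4 as its highest libraries, because NC1 lay above HC4 (difference 0.35, SE 0.69; exact permutation p = 0.686).

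The secreted products completed the set. Vwf, von Willebrand factor, which megakaryocytes also make, stood at 24.3, 22.9 and 1.17 RPM in normocapnia and at 16.8, 12.7, 68.5 and 44.0 RPM in hypercapnia (difference 1.43, SE 1.12; exact permutation p = 0.314). NC3 held 17 reads of Vwf and lay far below the other normocapnia libraries, which were close to each other. Egfl7, a protein that endothelial cells deposit in the vessel matrix, stood at 5.71, 4.32 and 0.826 RPM against 2.10, 2.06, 19.5 and 10.1 RPM (difference 0.76, SE 0.90; exact permutation p = 0.514).

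**Figure D1:**
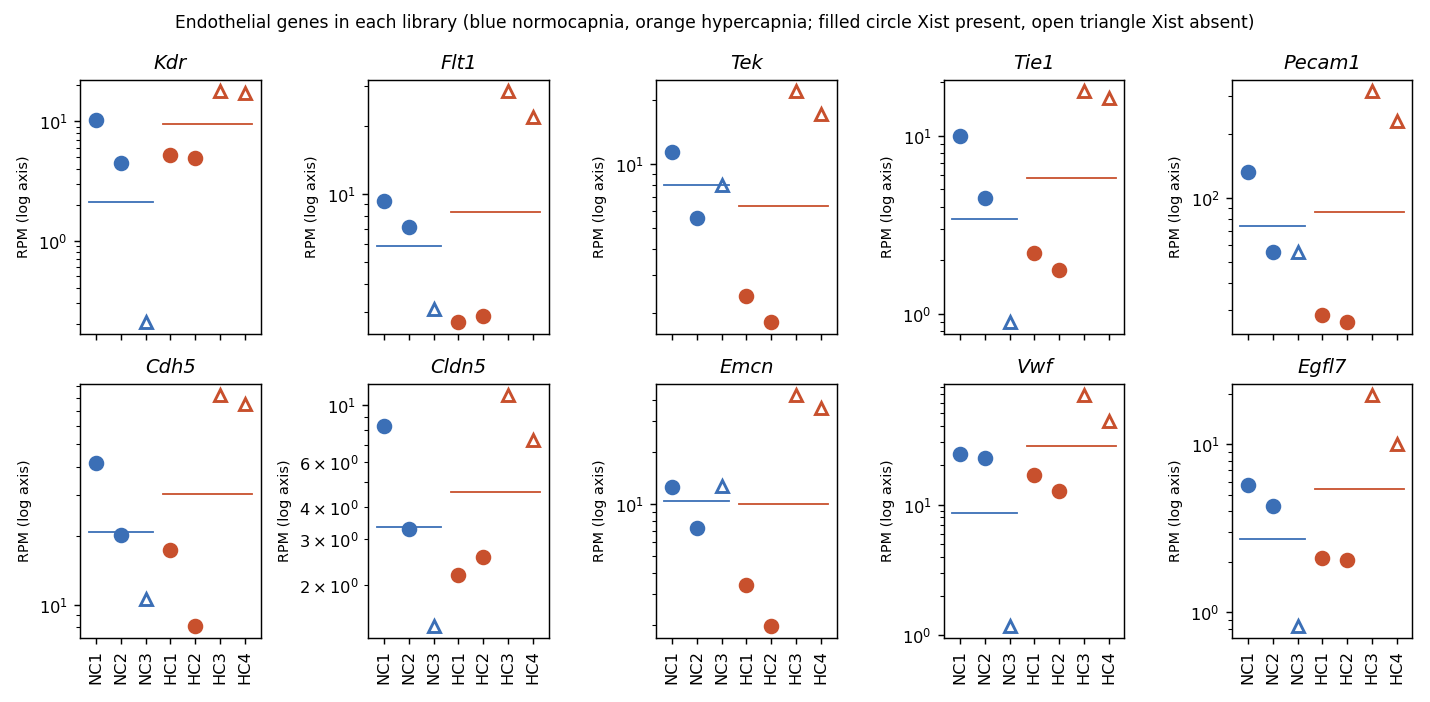
RPM (log axis) of each of the 10 genes in the 7 libraries, with normocapnia in blue and hypercapnia in orange, filled circles for libraries with Xist, open triangles for those without, and a line at the geometric mean of each group. HC3 is the highest library for all 10 genes, and NC3 falls far below NC1 and NC2 for Kdr (0.207 RPM) and Vwf (1.17 RPM) but not for Tek or Emcn.

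With the groups taken as labeled, no change with hypercapnia was detected in this set. Of the 10 genes, 0 were called by limma with the cutoffs that the study used (more than 1.5-fold, with p below 0.05 before adjustment), where 2.57% of all genes were called. The same rule called 0 of the 10 in edgeR, with 6.03% of the genes tested, and 0 in DESeq2, with 5.45%. None of the 10 had a p below 0.05 before adjustment in limma, and 0 passed an adjusted p of 0.05 in DESeq2, as 0.223% of genes did. After Benjamini-Hochberg adjustment the limma values of the 10 lay between 0.915 and 1. The groups overlapped in all 10 genes, and among expressed genes they did not overlap in 7.72%. In the exact permutation test, whose smallest possible p is 0.0286, the values for the 10 genes ran from 0.229 to 0.914. The differences were above 0 for 9 genes with a median of 0.53, beside a median of 0.16 for expressed genes. The 95% intervals were wide and do not show that the groups were alike: that of Cldn5, the narrowest, ran from -1.38 to 2.07, and that of Emcn from -2.81 to 2.94.

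The 10 genes differed widely within hypercapnia. The mean of HC3 and HC4 exceeded that of HC1 and HC2 by 3.48-fold for Kdr, 3.81-fold for Vwf, 3.83-fold for Cldn5, 6.17-fold for Cdh5, 7.12-fold for Egfl7, 8.66-fold for Tie1, 9.08-fold for Flt1, 9.29-fold for Tek, 10.0-fold for Pecam1 and 14.6-fold for Emcn, where the median over expressed genes was 1.14-fold. HC3 and HC4 were the 2 highest libraries for 9 of the 10 genes and for 7.58% of expressed genes. Within each pair the libraries lay close, with HC3 over HC4 between 1.03 (Kdr) and 1.93 (Egfl7) and HC1 over HC2 between 0.852 (Cldn5) and 2.16 (Cdh5). The pattern was noticed in these same values and is given as a description.

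The same pairs differed in Xist, which HC1 and HC2 carried and HC3 and HC4 lacked, so the comparison was repeated within libraries of each kind. Among the libraries with Xist, hypercapnia was lower for all 10 genes. The differences ran from -1.62 (Pecam1) to -0.38 (Kdr), and both hypercapnia libraries lay below both normocapnia libraries for 9 genes, as for 29% of expressed genes. Kdr was the exception, since NC2 (4.45 RPM) lay below HC1 and HC2. Among the libraries without Xist, both hypercapnia libraries lay above NC3, the single normocapnia library there, for all 10 genes, and so did 67.4% of expressed genes. Both patterns held together in 9 of the 10 genes and in 18.6% of expressed genes. The differences without Xist ran from 1.18 (Tek) to 4.69 (Vwf). The interaction, that is, the group difference with Xist minus that without, was fitted across all genes with limma. All 10 genes were called by the same cutoffs, all in the negative direction, where 14.7% of all genes, and 26.5% of expressed genes, were called in that direction. The lean of all genes to the negative side depended on the scaling, with 3524 genes called lower and 766 higher in RPM but 1894 lower and 2162 higher with median-of-ratios scaling. After adjustment over all genes with limma, Flt1 (-3.94, SE 0.31, adjusted p 0.0325) and Vwf (-5.34, SE 0.44, adjusted p 0.0333) passed 0.05, as did 3.2% of all genes. Both calls were lost when any 1 of the 4 hypercapnia libraries was left out, since the lowest adjusted p over all genes was then 0.0641 (without HC3) to 0.127 (without HC2), with 0.101 without HC4 and 0.123 without HC1. Over the 6 possible fits without 1 library, the estimate itself ran from -4.12 to -3.76 for Flt1 and from -5.655 to -5.03 for Vwf. In the fit of all libraries the other 8 genes ranged from -4.64 (Tie1) to -2.72 (Tek), with adjusted p between 0.0639 and 0.146. The interaction rests on NC3 alone for normocapnia without Xist and cannot be fitted without it, so sex-linked RNA and the make-up of that library cannot be told apart. The median interaction over expressed genes was -0.89 in RPM and -0.12 with median-of-ratios scaling, under which all 10 genes kept the call.

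**Figure D2:**
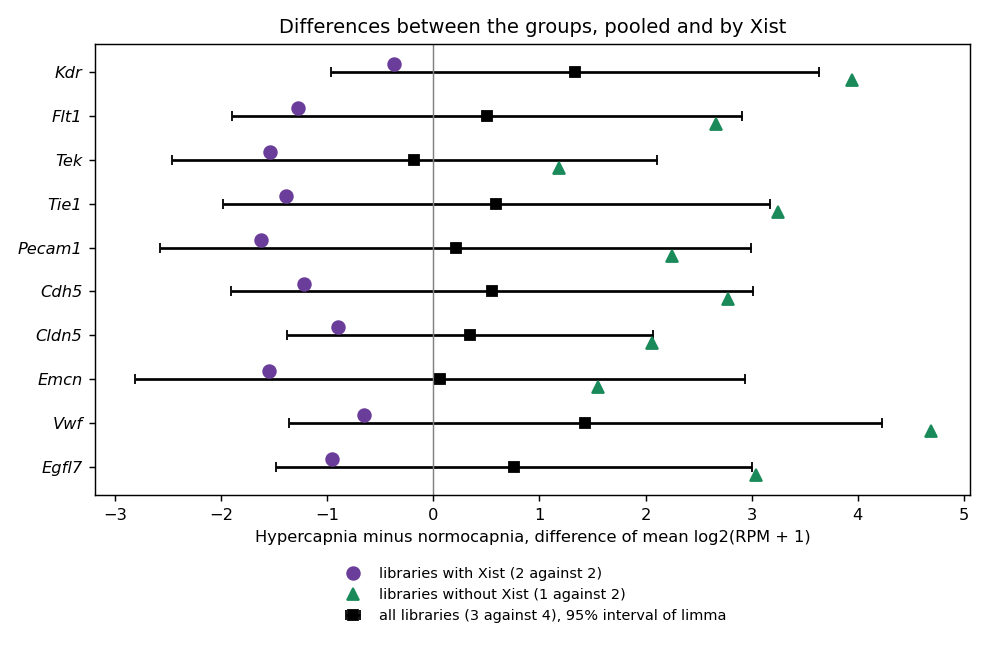
Difference of mean log2(RPM + 1), hypercapnia minus normocapnia, for each gene: black squares for all 7 libraries with the 95% interval of limma, purple circles within the 4 libraries with Xist and green triangles within the 3 without, neither with an interval. All 10 circles lie below 0 (-1.62 to -0.38) and all 10 triangles above it (1.18 to 4.69).

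Among the normocapnia libraries the 10 genes did not move as a block. NC2 and NC3 had nearly the same Pecam1 level, with a ratio of NC2 to NC3 of 0.998 (95% exact interval from the reads, 0.914 to 1.09, counting error only). Emcn (ratio 0.574, interval 0.463 to 0.711) and Tek (0.696, interval 0.538 to 0.902) were lower in NC2 than in NC3. By contrast the ratio was 21.5 for Kdr (interval 7.17 to 106), 19.6 for Vwf (12.1 to 33.9), 5.23 for Egfl7 (2.87 to 10.5) and 4.97 for Tie1 (2.78 to 9.64). Cdh5 (1.92), Flt1 (2.29) and Cldn5 (2.39) lay between. The intervals of the first 3 genes do not overlap with those of the next 4, although they cover counting error only and the comparison is of a pair of single libraries. For expressed genes the median ratio was 1.40, with 0.05 RPM added to each value, and 2.75% of them had a ratio at or above that of Kdr. The ratios of Tie1 and Emcn were less far out, with 13.8% of expressed genes at or above that of Tie1 and 17.2% at or below that of Emcn. Between NC1 and NC2, in contrast, the ratios of the 10 genes stayed between 1.06 (Vwf) and 2.51 (Cldn5).

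**Figure D3:**
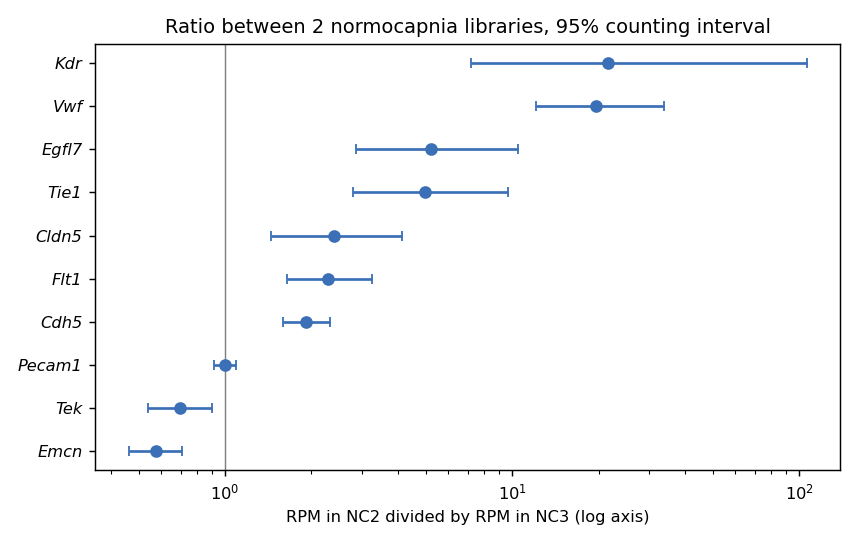
RPM in NC2 divided by RPM in NC3 (log axis) for each gene, with the 95% counting interval from the reads and a line at equality. Emcn and Tek lie below 1, Pecam1 at 0.998, and Vwf and Kdr near 20 to the right (19.6 and 21.5).

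Further endothelial genes were read from lists. Of 26 other pan-endothelial genes, all in the table, limma called 1 higher (Icam2) and 0 lower, beside 1.43% and 1.14% of all genes, with a median difference of 0.42. A single call in a list of this size is close to that background. Icam2, an adhesion ligand that leukocytes and platelets also carry, stood at 3.21, 4.23 and 1.45 RPM against 7.49, 6.73, 10.6 and 6.03 RPM, with the groups apart, as they were for S1pr1 of this list and for 7.72% of expressed genes (difference 1.18, SE 0.31; limma adjusted p 0.843). Unlike the 10 genes, it barely differed between the pairs of hypercapnia libraries (HC3 and HC4 over HC1 and HC2, 1.17-fold). HC3 and HC4 were the highest libraries for 20 of these 26 genes, including Erg and Sox18, transcription factors of endothelial identity, with folds of 11.5 and 12.0 over HC1 and HC2. Cd93, a surface protein that myeloid cells share, went otherwise and was higher in HC1 and HC2 (314 and 332 RPM) than in HC3 and HC4 (92.8 and 94.0 RPM). Eng, the TGF-beta co-receptor endoglin, followed the order of the 10 genes less steeply, from 63.3 RPM (HC1) to 162 RPM (HC3), 2.20-fold between the pairs. In the interaction, 18 of the 26 were called negative and 0 positive, beside 14.7% of all genes and 26.5% of expressed genes called negative. Of the 25 expressed genes of the list, 8 had a ratio of NC2 to NC3 of 4 or more, up to 10.5 for Esam, and 7 a ratio under 1, down to 0.113 for Podxl. Ratios on both sides were common in general, as 17% of expressed genes had a ratio of 4 or more and 36.3% a ratio under 1.

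Ligands and co-receptors of the VEGF and angiopoietin systems (12 genes, of which Pgf was at 0 in all libraries) held 0 called genes, beside 2.57% of all genes, with a median difference of 0.21. In lists this short, 0 calls are near that share. Vegfa, the main VEGF ligand, stood at 53.4, 49.1 and 27.5 RPM against 30.0, 22.3, 69.4 and 65.9 RPM. Angpt2, the angiopoietin that activated endothelium releases, stood at 2.23, 1.24 and 0 RPM against 0.428, 0.452, 6.06 and 4.81 RPM. The co-receptors Nrp1 and Nrp2, which are also found on macrophages, had the highest RPM of the list, and Nrp1 ran opposite to the 10 genes within hypercapnia, at 361, 370, 183 and 181 RPM in HC1 to HC4. Lists of vessel segments held 0 called genes as well, beside the same 2.57%: arterial (6 of 7 genes in the table, median difference 0.39), capillary (6 of 6, -0.27), venous (4 of 5, 0.53) and lymphatic (4 of 5, 0.12). Selp, the gene of P-selectin, which captures leukocytes on inflamed veins, stood at 8.21, 22.5 and 2.41 RPM against 3.34, 2.11, 38.2 and 57.5 RPM, so that it was 17.6-fold higher in HC3 and HC4 than in HC1 and HC2. The capillary genes with the highest RPM, Cd36 and Rgcc, and the lymphatic genes Lyve1 and Pdpn, are also expressed by macrophages or stromal cells and did not have HC3 and HC4 as their highest libraries. Efnb2 and Hey1 (arterial) and Nr2f2 (venous), named by the same rule, were highest in NC1, at 43.5, 32.8 and 78.4 RPM. HC3 and HC4 were the highest libraries for 4 of 6 arterial, 3 of 6 capillary, 2 of 4 venous and 1 of 4 lymphatic genes, and the median folds of HC3 and HC4 over HC1 and HC2 were 4.68, 3.22, 8.79 and 3.31. Among those that followed the 10 genes were Dll4, an arterial Notch ligand (17.99 and 9.82 RPM in HC3 and HC4 against 1.97 and 1.96 RPM in HC1 and HC2), and Fabp4, a fatty acid carrier of capillaries (146 and 101 RPM against 50.2 and 51.1 RPM). Ptprb, a phosphatase that acts on Tie2, and Flt4, the receptor of lymphatic vessels, each belong to 2 of these lists and were not called.

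Markers of other cells moved in part with the endothelial genes. Single genes called higher in the lists that follow stand beside 1.43% of all genes called in that direction. The 10 endothelial genes summed to 266, 135 and 94.4 RPM in NC1 to NC3 and to 82.5, 64.9, 626 and 474 RPM in HC1 to HC4. Pericyte and smooth muscle markers (8 genes) summed to 1955, 296 and 128 RPM and to 216, 168, 792 and 554 RPM, with Acta2 and Notch3 at the highest RPM, and limma called 1 of them higher (Cspg4) and 0 lower. Satellite cell markers (8 genes) summed to 1397, 84.3 and 65.7 RPM and to 238, 230, 661 and 485 RPM, with 0 called. For both sums HC3 and HC4 were likewise above HC1 and HC2, and NC1 was the highest library. Of the single satellite cell genes 7 of 8 were highest in NC1, whereas the pericyte sum was mostly Acta2, and 6 of the 8 pericyte genes were highest in HC3, as the endothelial genes were. Both HC3 and HC4 were above the rest for only 2 of the 8 pericyte genes, against 9 of the 10 endothelial genes and 7.58% of expressed genes. Fibro-adipogenic markers (6 of 7 genes in the table), led by Dcn and Col1a1, summed to 1767, 1289 and 1034 RPM and to 1035, 935, 1825 and 2230 RPM, with 0 called. The high sums of HC3 and HC4 were mostly Dcn (1050 and 1356 RPM), and HC3 and HC4 were the highest libraries for 2 of the 6 genes, Dcn and Lum, while Col1a1 and Col3a1 were highest in NC1. Macrophage markers summed to between 17406 and 21989 RPM in hypercapnia, which is mostly the level of Lyz2 (13410 to 16728 RPM), with Cd68 next in RPM. The median over the list was 0.649-fold in HC3 and HC4 relative to HC1 and HC2, opposite to the endothelial genes. C1qb stood at 1028, 1061, 271 and 422 RPM in HC1 to HC4. Adgre1 was called higher in hypercapnia as 1 of the 8 genes, and stood at 392, 429, 151 and 184 RPM there, while C1qa was at 0 in some libraries. The interaction was also negative for other cells, with 4 of 8 pericyte and 4 of 6 fibro-adipogenic genes called lower (medians -3.48 and -2.72), beside 14.7% of all genes. Satellite cell genes had a median of -3.56 with 0 called, against -3.97 for the 10 endothelial genes. Of the macrophage genes 0 were called lower and 1 higher (median 0.43).
Platelet and megakaryocyte markers (8 genes) come from cells that share Pecam1 and Vwf with endothelium, and 0 of them were called. Their sum was lower in HC3 and HC4 (1126 and 1049 RPM) than in HC1 and HC2 (2741 and 2619 RPM), but it consisted almost wholly of Pf4, which macrophages also express and which stood at 2701, 2557, 1040 and 985 RPM in HC1 to HC4. The members of the list did not move together. Itga2b, the gene of platelet glycoprotein IIb, stood at 6.91, 5.56 and 1.38 RPM against 2.53, 1.96, 6.50 and 6.36 RPM, and Itgb3 was likewise higher in both HC3 and HC4 (3.25 and 2.10 RPM) than in HC1 and HC2 (0.813 and 0.402 RPM). Treml1 went the other way (0.942 and 0.553 RPM in HC1 and HC2 against 0.0620 and 0.0680 RPM in HC3 and HC4), and for Gp1ba, Gp1bb and Ppbp the pairs overlapped. Gp9 did not exceed 0.125 RPM in any library. Neutrophil markers (6 genes, Csf3r and S100a9 at the highest RPM) summed to 222, 107 and 81.5 RPM and to 147, 105, 323 and 227 RPM, with HC3 highest for 5 of the 6 genes and both HC3 and HC4 above the rest for 1 (Csf3r), and 1 was called higher (Mmp8), beside the same 1.43% of all genes. Lymphocyte markers (5 of 6 genes in the table, Ms4a1 and Nkg7 at the highest RPM) summed to no more than 3.05 RPM. The part of these cells in the endothelial values was not tested.

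**Figure D4:**
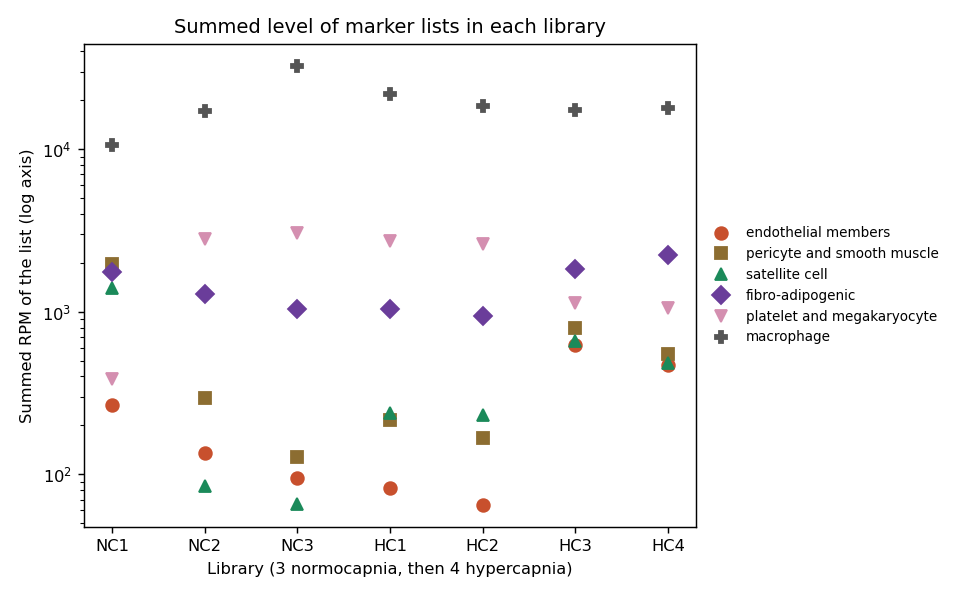
Summed RPM (log axis) of 6 marker lists in each library, with normocapnia on the left and hypercapnia on the right, 1 symbol per list. The endothelial sum is highest in HC3 (626 RPM) and HC4 (474 RPM), the pericyte sum, mostly Acta2, and the satellite sum in NC1 (1955 and 1397 RPM), and the platelet sum, mostly Pf4, is lower in HC3 and HC4 than in HC1 and HC2.

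The genes whose levels across the 7 libraries were most like the mean standardized level of the 10 were Syt15, Tinagl1, Shank3, Ccm2l, Rgs3, Fat4, Angpt2, Nos3, Spint2 and Tbx2, in that order. Their Pearson correlations ran from 0.989 to 0.995 over 7 libraries, and from 0.968 to 0.998 without HC3 and HC4, the libraries farthest from the median. Nos3, the endothelial nitric oxide synthase, stood at 2.54, 1.92 and 0.413 RPM against 0.77, 0.502, 5.75 and 5.21 RPM. Syt15, a synaptotagmin, stood at 2.28, 0.983 and 0.344 RPM against 0.385, 0.402, 4.19 and 3.72 RPM. Of the 12494 candidate genes, 115 had a correlation above 0.95. These are the highest of many values over few libraries that differ in several cell types at once, and they are given as a description.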

How the data were processed

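Per the labels and the methods, the authors sorted Pax7-GFP cells, made Ion AmpliSeq Transcriptome Mouse libraries and deposited 1 table of RPM (reads scaled to a common library total). The sources used here name neither the aligner nor the genome build. Groups came from the treatment labels, and columns were matched to samples by their barcode names. Whole reads were recovered for 100% of values within 0.05 reads, and 3 of 3 simulated libraries were recovered. A floor of 3 reads lay between 0.128 and 0.207 RPM. limma 3.58.1 in R 4.3.3 was tested on simulated data and fitted, unfiltered, to log2(RPM + 1) of all 23930 genes, with the two-sided exact permutation test over the 35 splits for single genes. edgeR 4.0.16 (quasi-likelihood) and DESeq2 1.42.0 were run on the recovered reads as alternatives. P-values measure the spread between these libraries, since the labels do not say that each is a separate animal. The genes and lists were chosen with earlier results of these data known. Fits with Xist status (at or above 10 RPM) were added after values were seen. Named from the lists were called genes and the 2 with the highest RPM in each. Erg, Sox18, Itga2b, Itgb3, Treml1, Gp1ba, Gp1bb, S1pr1, C1qb, Lum, Col3a1, Dll4, Fabp4, Esam, Podxl, Ptprb, Flt4, Pgf, Vegfa, Angpt2 and genes at or near 0 were picked once their values were known. Promoter windows came from the RefSeq table of GRCm38.p6. Other settings tried were pseudocounts of 0.1 and 5 RPM, a filter at a mean of 1 RPM, 2 other scalings, another prior variance, leaving out each library and the replicate number as a block.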

Additional observations from a re-analysis of the deposited data

Results flagged for a closer look

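The group difference of each of the 10 endothelial genes was of opposite sign in the libraries with and without Xist. The interaction term in limma, added after that split was seen in the same values, had an unadjusted p under 0.05 for all 10, as for 5076 of all 23930 genes, and passed adjustment for 2 of them (Flt1 and Vwf), as for 3.2% of all genes. Both of these were lost when any 1 hypercapnia library was left out. The estimates over the fits without 1 library ran from -4.12 to -3.76 for Flt1 and from -5.655 to -5.03 for Vwf. On the log2(RPM + 1) scale, the difference with Xist minus that without was -3.88 for Pecam1, -4 for Cdh5, -4.32 for Kdr, -2.72 for Tek, -4.64 for Tie1, -3.94 for Flt1, -3.10 for Emcn, -5.34 for Vwf, -2.97 for Cldn5 and -4 for Egfl7. It was fitted with NC3 as the only normocapnia library without Xist, which is thereby assumed to vary like the others, and sex is not in the labels. Dependence on Xist and the make-up of NC3 cannot be told apart.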

How the results depend on the processing

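None of the 10 endothelial genes was called between the groups under any of the 18 alternatives, and the lowest unadjusted p was that of Kdr without NC1 (limma, 0.0805; exact tests are given with the results). The signs of the small differences were not stable. Tek turned to 0.16 in DESeq2, 0.21 in edgeR with and without a filter and 0.0089 with a pseudocount of 5 RPM. Emcn turned to -0.0468 at a pseudocount of 0.1 RPM and to -0.0835 when libraries were scaled by median of ratios. With Xist status as a covariate Pecam1 was -0.0733 and Emcn -0.31, and with the replicate block they were -0.25 and -0.48. Deviations of same-numbered libraries from their group means correlated at -0.35 (NC1 with HC1), 0.50 (NC2 with HC2) and -0.04 (NC3 with HC3). Libraries of unlike number ran from -0.42 (NC2 with HC3) to 0.45 (NC2 with HC1). Since such deviations balance out within each group, these values do not settle whether the numbers pair the samples. Over the fits that leave out 1 library each, the differences ran from -0.41 to 0.77 for Pecam1, -0.69 to 0.32 for Tek, -0.0844 to 1.19 for Tie1, -0.0213 to 0.98 for Flt1, -0.56 to 0.73 for Emcn and -0.12 to 0.86 for Cldn5. Cdh5, Kdr, Vwf and Egfl7 stayed above 0 in all 18, but without NC3 Cdh5 fell to 0.0886, Egfl7 to 0.19, Vwf to 0.27 and Kdr to 0.43.

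The count of all genes called, 615, was 1304 in DESeq2, 1049 in edgeR without a filter, 1210 with Xist status as a covariate and 598 with the replicate block. It ran from 376 (without HC2) to 1990 (without NC1) over the fits without 1 library, with 385 without HC1 and 1205 without NC2. Of the 615, 343 were higher and 272 lower, against 294 and 508 in edgeR with a filter, 407 and 642 without one and 519 and 785 in DESeq2. The cause was not tested. In the interaction, 10 of 10 genes were called lower in edgeR (with 2594 of the 13293 genes tested), under median-of-ratios scaling (1894 of 23930) and at a pseudocount of 0.1 RPM (4256), whereas quantile normalization (1340) left 9 (Cldn5 lost the call). Leaving out 1 library gave 7 without HC3 (with 4021 of the 23930 genes called lower), 8 without HC2 (2204) and 9 without HC1 (2191). It gave 10 without HC4 (2611), NC1 (4724) or NC2 (6172), and all these calls were negative. Without any 1 of the hypercapnia libraries 0 were under an adjusted p of 0.05, and without NC3 the interaction could not be fitted. Depth limits the lowest values, such as Kdr in NC3 with 3 reads.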
